A study of Mus musculus with 3 samples.

Results

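The regions described here are stretches of mouse cerebellum DNA that were pulled down with an antibody against 5-hydroxymethylcytosine (5hmC) and that lie in the first intron of a protein-coding gene. The pulldown peaks of 3 replicates were merged where they overlapped by 1 bp or more on chromosomes 1 to 19. A merged region was kept when its midpoint lay in the first intron of the Ensembl canonical transcript of a protein-coding gene (GENCODE M39), outside every exon and more than 1 kb from every protein-coding transcription start. This left 2986 of 13285 merged regions, or 22.5%. The regions in later introns, 4491 in number and chosen in the same way, served as the nearest comparison.

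The DNA came from the cerebellum of a female C57Bl6Cr mouse aged 8 weeks, and 1 µg of it, sheared to a mean of 362 bp, went into each of 3 hydroxymethylated DNA immunoprecipitations (hMeDIP). The product was sequenced on an Oxford Nanopore MinION without amplification, so that each read both counts towards a peak and carries its own 5mC and 5hmC calls. Replicate 1 used a whole-serum antibody and replicates 2 and 3 an IgG-purified one. The library names give 1 cerebellum sample for all 3, so variation among replicates reflects the pulldown and the sequencing, not animals, and untreated DNA of the same sample served as the input for peak calling. All replicates belong to 1 group, and the comparisons below are between kinds of genomic sequence within each replicate. An exact sign-flip test over 3 replicates cannot give a two-sided p below 0.25, so no difference could pass a threshold of 0.05.

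5hmC is made from 5-methylcytosine (5mC) by the TET dioxygenases, and in neurons it is a stable and abundant mark as well as a step towards demethylation. It is known to be enriched in the bodies of transcribed genes in the cerebellum, where granule cells make up most of the nuclei. The first intron is often the longest intron of a gene and holds many enhancers and alternative starts.

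The following windows of 200 bases, each about the summit of the strongest peak of a region, show what was pulled down. All are the forward strand of GRCm39 (mm39), 5′ to 3′, with each CpG in capitals, since CpG is the context in which 5mC and 5hmC were called. The first pair are the regions with a peak in all 3 replicates, the second pair are strong regions with peaks in both IgG-purified replicates, the third pair are among the regions with the highest 5hmC shares, and the last pair are strong regions with no 5hmC call or no call of any kind.

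Nxn first intron, chr11:76287078-76287277: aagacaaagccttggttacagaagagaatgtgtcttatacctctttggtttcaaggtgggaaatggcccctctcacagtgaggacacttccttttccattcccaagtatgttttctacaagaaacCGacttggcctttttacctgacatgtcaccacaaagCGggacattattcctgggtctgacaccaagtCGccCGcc

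Tafa5 first intron, chr15:87449276-87449475: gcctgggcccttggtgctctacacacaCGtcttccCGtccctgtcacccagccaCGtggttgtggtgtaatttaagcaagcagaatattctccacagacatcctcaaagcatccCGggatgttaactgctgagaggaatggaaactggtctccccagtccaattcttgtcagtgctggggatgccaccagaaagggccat

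Neurl1a first intron, chr19:47188225-47188424: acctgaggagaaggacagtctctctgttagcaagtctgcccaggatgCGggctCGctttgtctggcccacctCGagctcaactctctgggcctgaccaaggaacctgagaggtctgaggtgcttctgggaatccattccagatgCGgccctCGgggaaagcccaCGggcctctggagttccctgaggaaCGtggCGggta

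Serinc3 first intron, chr2:163484991-163485190: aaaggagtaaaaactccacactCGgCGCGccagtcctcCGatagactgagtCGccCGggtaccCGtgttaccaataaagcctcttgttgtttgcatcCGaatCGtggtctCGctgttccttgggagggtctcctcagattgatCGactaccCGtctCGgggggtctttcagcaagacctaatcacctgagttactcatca

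Sh3gl2 first intron, chr4:85228362-85228561: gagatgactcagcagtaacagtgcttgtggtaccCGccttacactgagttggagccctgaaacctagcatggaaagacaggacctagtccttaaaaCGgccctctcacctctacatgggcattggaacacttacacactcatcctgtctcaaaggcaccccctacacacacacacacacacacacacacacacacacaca

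Kif5c first intron, chr2:49513100-49513299: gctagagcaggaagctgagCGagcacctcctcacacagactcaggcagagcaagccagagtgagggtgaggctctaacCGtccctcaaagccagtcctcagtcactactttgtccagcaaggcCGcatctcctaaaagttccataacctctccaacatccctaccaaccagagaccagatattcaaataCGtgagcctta

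Mdga2 first intron, chr12:67106245-67106444: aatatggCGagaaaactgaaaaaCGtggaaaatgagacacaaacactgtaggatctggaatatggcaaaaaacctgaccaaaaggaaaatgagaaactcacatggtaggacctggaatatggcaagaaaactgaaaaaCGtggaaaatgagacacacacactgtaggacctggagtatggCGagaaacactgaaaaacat

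Nxph1 first intron, chr6:9179689-9179888: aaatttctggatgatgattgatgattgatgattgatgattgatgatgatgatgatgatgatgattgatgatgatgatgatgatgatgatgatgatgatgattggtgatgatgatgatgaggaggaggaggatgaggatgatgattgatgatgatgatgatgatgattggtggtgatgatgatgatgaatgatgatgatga

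The windows differed in CpG content. The Serinc3 window held 13 CpG and the Neurl1a window 8, while the windows of Nxn, Tafa5, Kif5c and Mdga2 held 4 each, that of Sh3gl2 held 2 and that of Nxph1 none. The Mdga2 window is a tandem repeat: shifted by 115 bases it matched itself at 82.4% of positions, against 36.5% for the Nxn window at its own best shift. The Sh3gl2 window ends in a run of CA units and the Nxph1 window is a run of short GAT-rich units. The shift looks only within a window. Copies of the windows elsewhere in the genome were not searched for, so whether the reads came from these loci alone was not tested.

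The number of peaks and of base-calls within them differed widely between replicates. The files listed 497, 8546 and 5166 peaks for replicates 1, 2 and 3, of which 490, 8506 and 5146 lay on chromosomes 1 to 19. Of these, 89, 1900 and 1147 belonged to first-intron regions, which is 18.2%, 22.3% and 22.3%. Replicate 1, the whole-serum pulldown, thus contributed few of the regions. By the study's own account, mapped reads were most numerous in replicate 1. No other replicate used whole serum, so antibody cannot be told apart from anything else particular to replicate 1. The cause of its few peaks was not tested.

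Most first-intron peaks rested on few reads. The fold enrichment of a peak over input moves in steps worth 1 read, and the median first-intron peak corresponded to 4 reads at its summit in replicate 1 and to 3 in each of replicates 2 and 3. Read numbers are approximate where the local background differs from the usual one, and came within 0.05 of a whole number in 71.9%, 74.8% and 78.3% of these peaks. The share of first-intron peaks with 3 reads or fewer was 21.3%, 81.3% and 83.2% in replicates 1, 2 and 3. Median fold enrichment was 4.72, 3.83 and 3.87 in first introns against 4.72, 3.81 and 3.86 in later introns, a mean difference of 0.00869 ± 0.00774 (SD, n = 3, exact sign-flip p = 0.5). The medians of the classes thus differed by far less than 1 read.

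The first-intron regions were seldom shared, and many had the same width. Their median width was 304 bp, as was the lower quartile, with a range from 295 to 2432 bp. Median peak width was 295, 304 and 302 bp in replicates 1, 2 and 3, the same in first and later introns. Of the 2986 regions, 2839 had a peak in 1 replicate, 145 in 2 replicates and 2 in all 3, so 4.92% were seen more than once, against 5.39% of later-intron regions. By replicate, 24.7%, 7.32% and 11.9% of first-intron peaks overlapped a peak of another replicate, against 31.6%, 8.11% and 12.4% of later-intron peaks. The mean difference was -2.74 ± 3.59 percentage points (SD, n = 3, exact sign-flip p = 0.25), lower in 3 of 3 replicates but smaller than its own spread.

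First introns held more peaks per length of sequence than later introns. The eligible first-intron sequence measured 193 Mb and the eligible later-intron sequence 570 Mb, and peaks were assigned here by their own midpoints. In replicate 1 there were 0.461 peaks per Mb in first introns and 0.295 in later introns. In replicate 2 the values were 9.83 and 5.00, and in replicate 3 they were 5.94 and 3.01. The ratio was 1.83 ± 0.233 (SD, n = 3), or 0.87 ± 0.19 on the log2 scale (exact sign-flip p = 0.25, the smallest this design allows), and first introns were denser in 3 of 3 replicates. Sequence outside annotated genes held 0.0493, 0.897 and 0.529 peaks per Mb in the 3 replicates, so first introns were 10.5 ± 1.02 times as dense (exact sign-flip p = 0.25 on the log2 scale). Against the 1 kb on each side of transcription starts the density of first introns was lower in replicate 1 and higher in replicates 2 and 3, with a mean ratio of 0.984 ± 0.211 (exact sign-flip p = 1 on the log2 scale).

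The higher density of first introns was measured at matched distances from the start of the gene's own canonical transcript. From 1 to 5 kb the ratio of first to later introns was 3.08, 1.53 and 2.199 in replicates 1, 2 and 3, where that of replicate 1 rests on 13 first-intron and 2 later-intron peaks. From 10 to 20 kb it was 2.09, 2.69 and 2.28, and from 50 to 100 kb it was 1.85, 1.67 and 1.55. Within first introns the replicates differed in direction over this span, with 0.384, 10.96 and 7.26 peaks per Mb from 1 to 5 kb and 0.680, 10.01 and 5.82 from 50 to 100 kb. Beyond 100 kb it was 4.96 in replicate 2 and 2.99 in replicate 3, beside 4.63 and 2.76 in later introns, and the ratio averaged 0.809 ± 0.461 (SD, n = 3, exact sign-flip p = 1). In replicate 1 that last distance held 2 first-intron peaks.

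**Figure D1:**
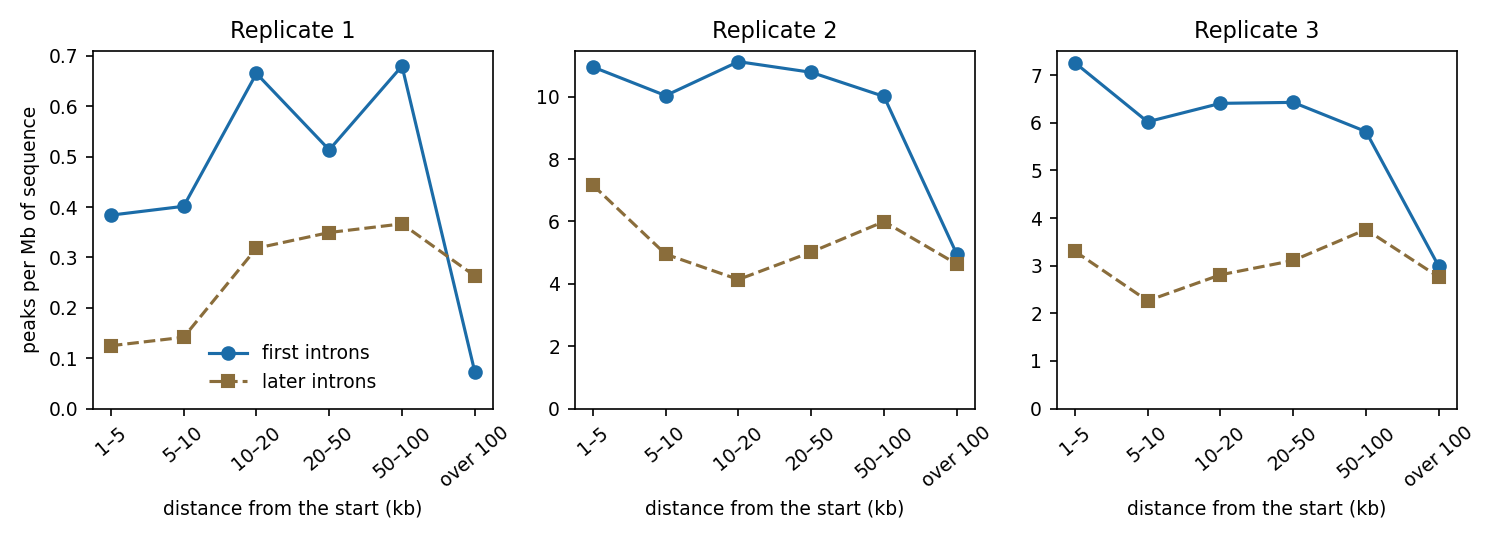
Peaks per Mb of eligible sequence (y axis, a separate scale for each replicate) by distance from the start of the gene's own canonical transcript (x axis, kb), for first introns (circles, solid) and later introns (squares, dashed). First introns lie above later introns at every distance up to 100 kb in all 3 replicates, and beyond 100 kb the lines of replicates 2 and 3 come together at 4.96 against 4.63 and 2.99 against 2.76 peaks per Mb.

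The regions were spread along the introns. Their median distance from the start was 17816 bp, 606 of them lay within 5 kb and 208 lay over 100 kb away. They followed long introns: 1.50% of genes with a first intron under 5 kb had a region, 28.6% of genes with one of 20 to 50 kb, and 58.2% of genes with one over 200 kb. Per Mb, however, the regions numbered 10.6 in introns under 5 kb, 19.4 in those of 20 to 50 kb and 5.86 in those over 200 kb. The longest introns thus had a region most often and the fewest regions per length.

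The pulled-down sequence was richer in CpG than first-intron sequence at large. In windows of 304 bp about the midpoints the mean was 5.23 CpG, against 2.58 in 611710 windows of the same length tiled over eligible first-intron sequence. The share with 4 or more CpG was 71.4% against 26.9%, and the share with none was 1.37% against 15.3%. Median GC content was 47.7% against 42.8%. Medians of first-intron and later-intron peaks were close in CpG, at 1.84 and 2.03 CpG per 100 bp in replicate 1, 1.64 in both classes in replicate 2 and 1.66 in both in replicate 3 (mean difference -0.0608 ± 0.105, SD, n = 3, exact sign-flip p = 1).

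A run of 10 CA units, read as CA on either strand, was searched for, and it occurred in 3.58% of the member windows of 304 bp and in 3.56% of all first-intron windows of that length. By replicate, 3.37%, 5.42% and 4.10% of first-intron peaks held it, against 3.45%, 4.63% and 4.00% of later-intron peaks, a mean difference of 0.270 ± 0.458 percentage points (SD, n = 3, exact sign-flip p = 0.5).

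Base-calls inside the peaks showed what the pulled-down DNA carried. In the replicate's own first-intron peaks there were 980, 14673 and 8471 CpG base-calls at 577, 10350 and 5803 sites for replicates 1, 2 and 3, with at most 6 calls at a site. The 5hmC share was 35.0% in replicate 1 (exact Clopper-Pearson 95% interval from 32.01 to 38.1%). It was 38.6% in replicate 2 (interval from 37.8 to 39.4%) and 36.9% in replicate 3 (interval from 35.9 to 37.96%). These intervals, and the intervals and limits below, cover counting error only. They treat base-calls as independent, although a read can carry several. The 5mC share was 37.3%, 36.1% and 38.5%, and unmodified cytosine made up the remaining 27.7%, 25.3% and 24.6%. The mean of 36.8% ± 1.81 for 5hmC and that of 37.3% ± 1.17 for 5mC (SD, n = 3) lay close together, so 5hmC and 5mC were called about equally often.

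The 5hmC share was higher in first introns than in later introns in 3 of 3 replicates. Later-intron peaks gave 26.9%, 32.8% and 28.9%, and the mean difference was 7.33 ± 1.29 percentage points (SD, n = 3, exact sign-flip p = 0.25, the smallest possible). Part of the calls in later introns came from 4 regions of very high signal, in which at least 1 CpG had 20 or more calls. They held 28.5%, 6.09% and 21.6% of all later-intron calls and had 5hmC shares of 18.4%, 15.02% and 12.6%. No first-intron region reached that signal. Without them the later-intron shares were 30.3%, 33.9% and 33.3%, and first introns were higher by 4.32 ± 0.624 percentage points (exact sign-flip p = 0.25).

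The regions also carried this level where a replicate had not called a peak. Using only calls of a replicate in regions called in another, first introns had 5hmC shares of 36.2%, 37.6% and 37.5% over 5014, 1740 and 3068 calls. Later introns had 33.2%, 30.3% and 36.4%, and the difference was 3.79 ± 3.16 percentage points (SD, n = 3, exact sign-flip p = 0.25). In first introns the shares outside and inside a replicate's own peaks were thus close, although the calls do not overlap.

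The 5mC share went the other way, with 43.4%, 41.7% and 45.8% in later-intron peaks and a mean difference of -6.30 ± 0.918 percentage points (SD, n = 3, exact sign-flip p = 0.25). Without the regions of very high signal this difference was -1.61 ± 3.17 percentage points (exact sign-flip p = 0.5), with 1 replicate of the opposite sign, so the difference was smaller than its own spread.

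First-intron peaks also had more 5hmC than peaks within 1 kb of a transcription start, where the shares were 31.9%, 28.0% and 30.3% (mean difference 6.78 ± 3.78 percentage points, SD, n = 3, exact sign-flip p = 0.25). Unmodified cytosine was less frequent in first introns than near starts, by -8.63 ± 2.58 percentage points (exact sign-flip p = 0.25). In exons, once the regions of very high signal were left out, the 5hmC shares were 26.8%, 28.6% and 29.0%, which put first introns 8.72 ± 1.12 percentage points higher (exact sign-flip p = 0.25).

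**Figure D2:**
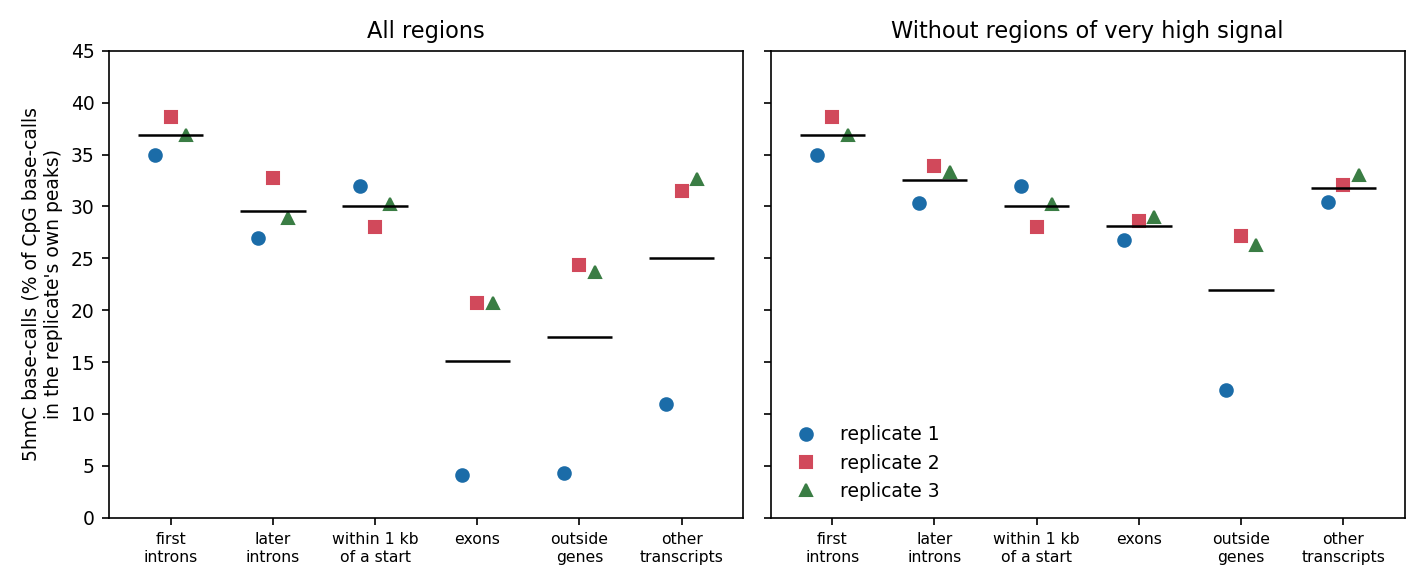
5hmC base-calls as a percentage of CpG base-calls in each replicate's own peaks (y axis) by class of region (x axis), with all regions on the left and without regions holding a CpG of 20 or more calls on the right. Points are single replicates and horizontal lines are means of 3, and first introns have the highest mean in both panels, 36.8%.

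Within first introns, the 5hmC share was compared between regions near to and far from the start. Regions within 10 kb had 5hmC shares of 31.4%, 39.7% and 36.5%, and those over 50 kb away had 35.3%, 38.5% and 33.6%. The mean difference was 0.0929 ± 3.54 percentage points (SD, n = 3, exact sign-flip p = 1), with the first replicate of one sign and the others of the opposite. Without the Mdga2 region the mean was -1.68 ± 6.33 (exact sign-flip p = 1). Regions within 5 kb were higher than those over 100 kb away in 3 of 3 replicates, by 10.9 ± 15.2 percentage points with the Mdga2 region and 3.12 ± 2.398 without it (both exact sign-flip p = 0.25). In replicate 1 the share over 100 kb away rested on very few calls, as given below. At matched distances first introns exceeded later introns by 6.28 ± 1.31 percentage points from 1 to 5 kb and by 8.46 ± 1.12 from 5 to 10 kb (both exact sign-flip p = 0.25), where the later-intron shares of replicate 1 rest on 14 and 49 calls, and by 5.51 ± 5.71 from 50 to 100 kb (exact sign-flip p = 0.5). Over 100 kb from the start the differences were -17.6, 6.09 and 7.73 percentage points in replicates 1, 2 and 3 (mean -1.26 ± 14.2, exact sign-flip p = 1). The value of replicate 1 rested on 33 first-intron calls, 26 of them in the Mdga2 repeat printed above and none of those 5hmC. Without the Mdga2 region the differences were 4.92, 6.09 and 8.58 percentage points. The value of replicate 1 then rested on 7 first-intron calls, 2 of them 5hmC. Without the later-intron regions of very high signal as well, the differences were -1.79, 3.36 and -0.328, so beyond 100 kb the sign turned on a few regions.

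The deposited base-calls are of the forward strand of the genome, so a region in a gene on the plus strand is read on the coding strand and a region in a gene on the minus strand on the template strand. The first-intron regions split into 1503 and 1483. The coding strand had 34.1%, 38.5% and 35.3% 5hmC and the template strand 35.9%, 38.7% and 38.3%. The difference was -1.70 ± 1.40 percentage points (SD, n = 3, exact sign-flip p = 0.25), lower on the coding strand in 3 of 3 replicates. These are different genes and not both strands of the same CpG.

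Single regions varied far more than the replicate means. Here and below, shares of single regions, genes and gene lists use all calls of a replicate in the regions, inside its own peaks or not. In replicate 1 the first-intron regions held 5994 calls, against 980 in its own peaks. With the replicates summed, 1247 of the 2986 regions had 10 or more calls, while 158 had none, 32 of which hold no CpG. Among the 1247, the median 5hmC share was 37.5%, the quartiles were 26.7% and 48.6%, and 20 regions had no 5hmC call. More 5hmC than 5mC was called in 590 of them, or 47.3%, against 790 of 1925 later-intron regions with as many calls, or 41.0%. The median share of those later-intron regions was 33.3%.

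**Figure D3:**
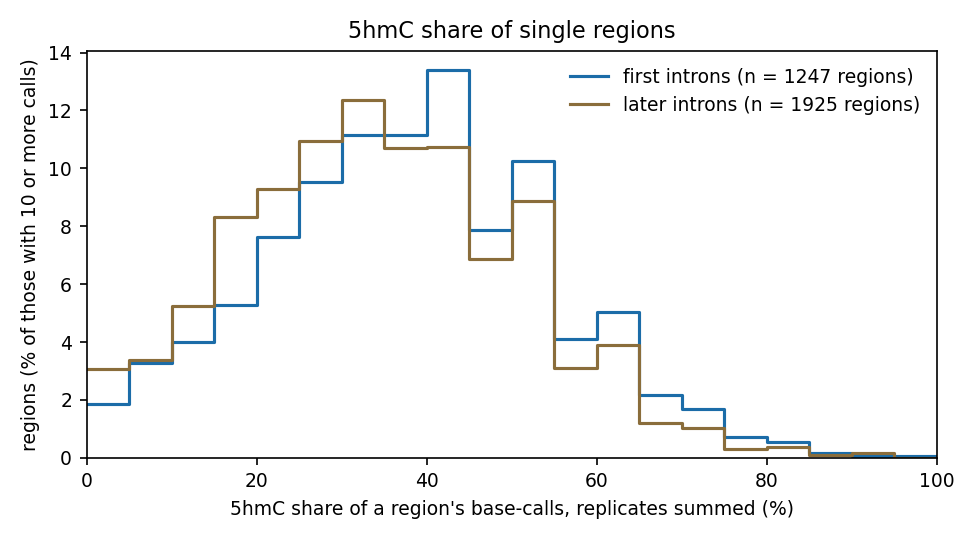
Distribution of the 5hmC share of single regions with 10 or more base-calls, replicates summed (x axis, %), as a percentage of regions in bins of 5 percentage points (y axis). The first-intron line (n = 1247, median 37.5%) lies to the right of the later-intron line (n = 1925, median 33.3%), and both spread over most of the range.

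The shares of single regions were then set side by side between replicates. Over the 105 regions with 10 or more calls in each of replicates 2 and 3, the median absolute difference between the replicates' 5hmC shares was 13.1 percentage points. It was 12.6 points over 81 regions in replicates 1 and 2 and 14.4 points over 51 regions in replicates 1 and 3. Across regions Spearman's coefficient was 0.231 for replicates 1 and 2, 0.265 for 1 and 3 and 0.309 for 2 and 3, and Pearson's r was 0.211, 0.328 and 0.317. These are descriptions, since regions share a library and its depth, and the part of counting error in the differences was not tested. The median 5hmC share was lower at higher CpG density, going from 40.0% in 561 regions of 1 to 2 CpG per 100 bp to 36.3% in 636 regions of 2 to 4 and 28.6% in 27 regions of 4 or more, while the median unmodified share was 21.4%, 21.2% and 19.5%. This is a description across regions with no test.

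The 2 regions called in all 3 replicates had different base-calls. The region in Nxn, which encodes the thioredoxin-like protein nucleoredoxin, lies at chr11:76286946-76287456, 2.77 kb into the gene, with fold enrichments of 4.72, 3.83 and 3.87. Its calls were 5hmC in 12 of 21, 8 of 19 and 12 of 24 in replicates 1, 2 and 3, which is 50.0% in all. The region in Tafa5, which encodes a secreted chemokine-like protein of the brain, lies at chr15:87447466-87449450 and had fold enrichments of 6.61, 3.83 and 3.87. Its calls were 5hmC in 2 of 14, 8 of 24 and 4 of 21, which is 23.7% in all. In the printed Nxn window each of the 4 CpG had at least 1 5hmC call in some replicate.

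The strongest regions with peaks in exactly 2 replicates were in Mdga2, Neurl1a, Serinc3, Dlg2, 1700025G04Rik, Ppargc1b, Nxph1, Ccdc85c, Srgap3 and Mical3. The Mdga2 region, in a gene for a synaptic adhesion protein, had the highest fold enrichments of any first-intron region in replicates 1 and 3, 8.81 and 8.45. None of its 29 and 18 calls in those replicates was 5hmC, which over 47 calls allows a share of up to 6.38% by the limit of 3 counts and 7.55% by the exact 95% interval, and 83.0% were 5mC. This is the tandem repeat printed above, and whether reads from other copies of such a repeat aligned here was not tested. The study places part of its pulldown reads without 5hmC in satellite and simple repeats. Neurl1a, for a neuralized-type ubiquitin ligase, had 17 of 37 and 21 of 49 calls as 5hmC in replicates 2 and 3, or 45.9% and 42.9%. Serinc3, for a membrane protein, had 16 of 35 and 13 of 49, or 45.7% and 26.5%. Dlg2, for the postsynaptic scaffold PSD-93, had 8 of 32 and 5 of 46 calls as 5hmC, or 16.7% in all. The Nxph1 region, in a gene for a neurexin ligand, had fold enrichments of 4.41 and 6.36 and holds no CpG, so nothing could be called in it. With the replicates summed, the 5hmC share was 58.6% in Mical3, 44.2% in Srgap3, 36.3% in Ccdc85c and 29.6% in Ppargc1b. In 1700025G04Rik 6 of 10 calls were 5hmC, with 0 of 4 in replicate 2 and 6 of 6 in replicate 3. These strongly enriched regions thus ranged from no 5hmC call to over 50% of calls.

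Among regions with 30 or more calls, 225 in number, the highest and lowest 5hmC shares are given as a description, since the share chose them. Sh3gl2, for the endocytic protein endophilin A1, had 12 of 16 and 11 of 15 calls as 5hmC in replicates 2 and 3, or 74.2% in all, although only replicate 2 called a peak. The printed Sh3gl2 window held only 1 call in each of these replicates, which was 5hmC in replicate 2 alone, so the share comes from the rest of the region. Ablim3, Kif5c, Kcnk12 and Galnt2 had 64.2%, 64.1%, 61.3% and 61.0%. Kif5c encodes a neuronal kinesin heavy chain and Kcnk12 a potassium channel subunit. At the low end, below Mecom at 3.33%, Syt7 at 3.23% and Wbp1l at 2.70%, stood Mdga2 with no 5hmC call. The Mecom region was unlike the Wbp1l region in its other calls, with 27 of 30 calls as 5mC against 16.2% of calls.

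**Figure D4:**
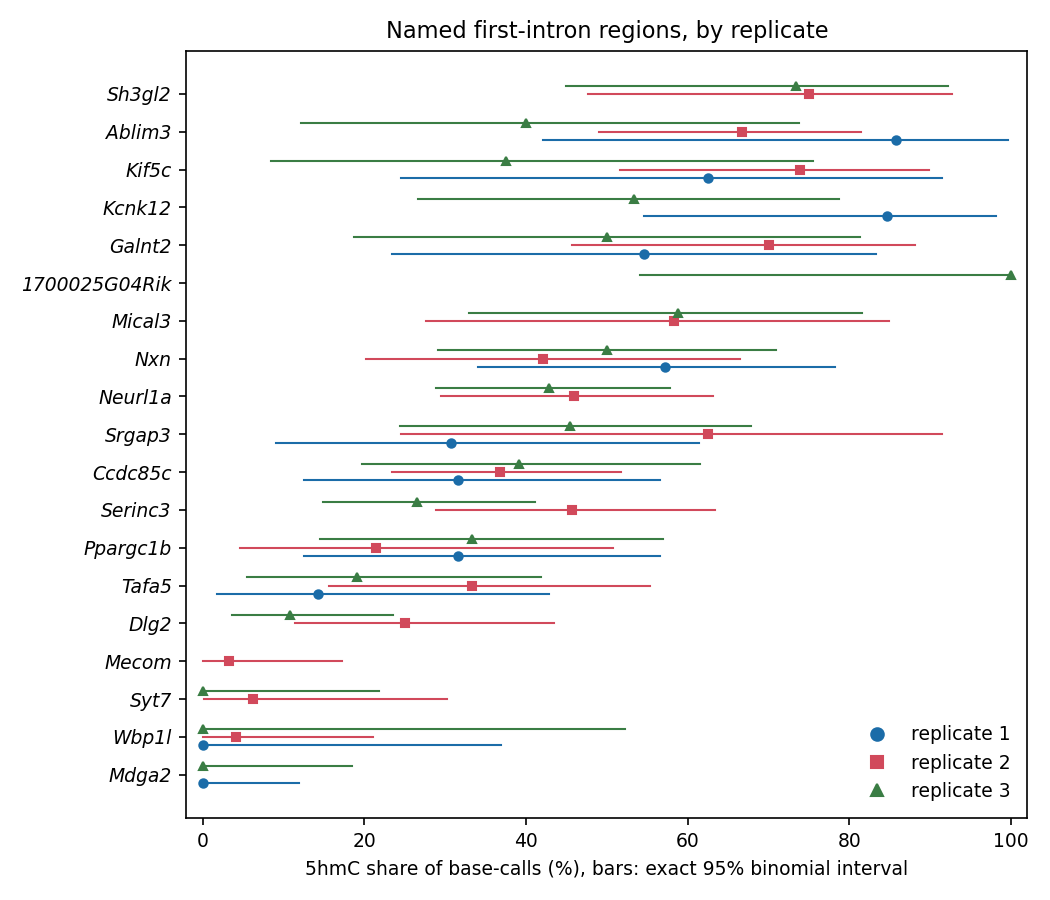
5hmC share of base-calls (x axis, %) in the named first-intron regions (rows, by host gene) in each replicate with 5 or more calls, with exact 95% binomial intervals as bars. Rows are in order of the share with replicates summed, from Sh3gl2 at 74.2% to Mdga2 with no 5hmC call, and the intervals of replicates overlap within each row that has more than 1.

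The regions fell in 1439 of 13777 protein-coding genes with eligible first-intron sequence, which is 10.4% of genes. Of these, 874 had 1 region and 26 had 10 or more. The gene with the most was Prkce, for the kinase PKC epsilon, with 28 regions over a first intron of 184.6 kb. Replicates 1, 2 and 3 had peaks in 1, 16 and 12 of them, and 36.1% of 568 calls were 5hmC. Igsf21, for a synaptic adhesion protein, had 16 regions. Tafa5, Trio and D430041D05Rik had 15 each, and Nedd4l had 14 and was named over the others with 14 for its higher peak. Trio encodes a guanine nucleotide exchange factor and Nedd4l a ubiquitin ligase. The 5hmC share in these genes ran from 34.9% in Igsf21 to 53.0% in D430041D05Rik.

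The 18 gene lists held 495 genes, 366 of them with eligible first-intron sequence, and are described by counts beside the 10.4% and the 15.2 regions per Mb of all genes. The share of genes with a region follows intron length, so the rate per Mb is given too. That rate also varied with intron length, from 19.4 in introns of 20 to 50 kb to 5.86 in those over 200 kb. Among cerebellar cell types, 9 of 20 granule cell genes had 27 regions, 24.8 per Mb, led by Chn2 with 11 and Cadps2 with 5. Chn2 encodes beta-chimaerin, a Rac GTPase-activating protein, and Cadps2 a secretory vesicle priming protein. Of 22 Purkinje cell genes, 4 had 16 regions, 23.6 per Mb, 9 of them in Dab1, the adaptor of the reelin pathway. The interneuron list had 8 regions in 2 of 14 genes, 9.81 per Mb, 7 of them in Megf11.

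The glial and vascular lists had lower rates per Mb than all genes. Astroglia had 6 regions in 3 of 16 genes (6.90 per Mb), among them Slc4a4 and the glutamate transporter gene Slc1a2, and that share of genes, 18.8%, was near the 18.2% of the Purkinje cell list. The oligodendrocyte lineage, microglia and endothelial and mural lists had 1 region each, in St18, P2ry12 and Mecom, of 18, 12 and 11 genes and 0.257, 0.156 and 0.596 Mb. The lists of other tissues had 0 regions in 15 liver genes, 3 in 2 of 14 muscle genes and 1 in 22 lymphocyte genes. The eligible sequence of these and of the glial lists with 1 region was short, at 0.0506 Mb for liver and 0.105 Mb for muscle, so such counts say little, and the muscle rate of 28.6 per Mb rests on 3 regions.

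Among pathways, the highest rates were in neuronal splicing and RNA binding, with 41 regions in 10 of 22 genes (40.5 per Mb), and in calcium channels and stores, with 48 in 14 of 32 genes (39.6 per Mb). Srrm4, a regulator of neuronal microexons, had 11 regions and Mbnl2 had 7. Cacna1c, the pore subunit of an L-type calcium channel, had 11 regions in 46.99 kb of eligible sequence, 234.1 per Mb, and Cacnb4 had 7. GABA and glycine receptors had 13 regions in 4 of 10 genes (33.8 per Mb), 9 of them in Gabbr2, a subunit of the GABA-B receptor. Axon guidance had 55 regions in 17 of 39 genes (22.4 per Mb), with 13 in Ephb1 and 7 in Ephb2, which encode ephrin receptors. Among the writers, erasers and readers of 5mC and 5hmC, 4 of 13 genes had 1 region each, namely Tet1, Dnmt3a, Uhrf2 and Mbd2, and the rate of 30.2 per Mb rests on 0.132 Mb.

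Other neuronal lists lay below all genes per Mb. Synaptic adhesion had 47 regions in 19 of 48 genes (7.77 per Mb) and voltage-gated potassium channels had 16 in 11 of 33 (4.47 per Mb). Glutamate receptors had 2 regions in 2 of 18 genes (1.67 per Mb), in Grik4 and Grm3. Median eligible sequence per gene was 78.1 kb in synaptic adhesion, 28.7 kb in potassium channels and 6.10 kb in glutamate receptors. In all genes it was 4.05 kb, and the part of intron length in these rates was not tested. By genes, synaptic adhesion and potassium channels lay above the 10.4% of all genes, at 39.6% and 33.3%, and glutamate receptors near it, at 11.1%.

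**Figure D5:**
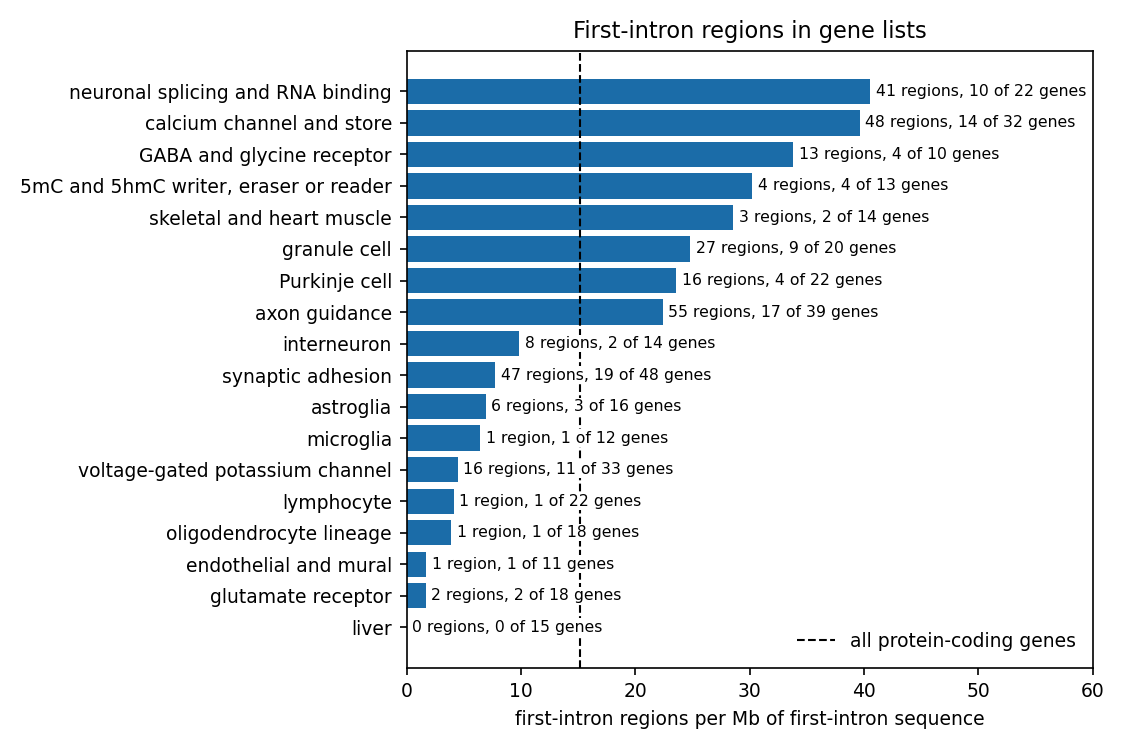
First-intron regions per Mb of eligible first-intron sequence (x axis) in each of 18 gene lists (rows), with the number of regions and of genes beside each bar and all protein-coding genes at 15.2 per Mb as the dashed line. Splicing and RNA binding, at 40.5 per Mb, and calcium channels and stores, at 39.6, are the longest bars, and the glutamate receptor and endothelial bars, both at or under 1.68, are among the shortest.

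With the replicates summed, the 5hmC share of the lists with most calls lay near that of all first-intron regions. The mean of the replicates in all first-intron regions was 36.8% in own peaks and 37.1% outside them. The list share was 37.9% over 599 calls in calcium channels and stores and 41.0% over 580 in axon guidance. It was 38.1% over 512 in splicing and RNA binding and 38.7% over 393 in synaptic adhesion. By replicate the calcium list had 41.8%, 40.7% and 30.1% and axon guidance 47.4%, 40.8% and 38.1%. Splicing and RNA binding had 37.1%, 39.4% and 36.7% and synaptic adhesion 29.6%, 39.2% and 40.9%. In the astroglia list it was 30%, 62.5% and 40.6% in replicates 1, 2 and 3, over 10, 32 and 32 calls. In the GABA and glycine receptor list it was 34.8%, 37.7% and 52.1%, over 23, 53 and 73 calls. In the Purkinje cell list it was 57.1%, 40.8% and 20% in replicates 1, 2 and 3, over 21, 98 and 35 calls, so the replicates lay far apart. In the granule cell list it was 46.3%, 46.3% and 41.7% in replicates 1, 2 and 3, over 82, 121 and 139 calls. In the interneuron list it was 21.7%, 25.9% and 28.1%, over 23, 54 and 32 calls, all of them in Megf11.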

How the data were processed

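The authors base-called the MinION reads with Dorado 0.5.1, aligned them with minimap2 2.24 to mm39 and called narrow peaks with MACS2 2.2.6 (q of 0.05) in each replicate alone against an input library. In the peak lists the authors deposited, fold enrichment is a ratio of summit reads to local background, significance is the −log10 of the MACS2 p and q values, and the score is 10 times the latter for display. Their modkit 0.2.8 pileups give deposited counts of 5hmC, 5mC and unmodified base-calls per CpG, and the percent modified. The study's methods state that repeat-masked sequence was left out. The tandem repeat printed for Mdga2 nevertheless held 14 and 8 calls in replicates 1 and 3. Here peaks were merged, classed with GENCODE M39 on GRCm39 and compared with Python 3 scripts. A start was that of any protein-coding transcript or of a canonical transcript of a protein-coding gene. Shares of classes, strands and distances are summed calls in a replicate's own peaks unless stated otherwise. Those of single regions, genes and gene lists sum all of a replicate's calls in the regions. Density used peak midpoints. The text names regions with peaks in all 3 replicates, the 10 strongest with peaks in exactly 2, the 6 highest and 4 lowest 5hmC shares among those with 30 or more calls, the 6 genes with most regions (ties by the higher peak) and up to 4 genes of each list. One item that this rule names is not reported here. Scripts were tested on simulated data. The regions, lists and tests were chosen with earlier results of these data known. Alternatives were other thresholds on peaks, calls, overlap and distance, and leaving out each replicate.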

Additional observations from a re-analysis of the deposited data

How the results depend on the processing

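Over 101 recomputed values, 78 moved by less than the spread between replicates, or stayed within 1.5 times for the count of regions, and 8 changed sign or came to 0, in distance, CpG density, fold enrichment and CA repeats, whose main values were near 0. The density ratio stayed between 0.81 and 1.02 on the log2 scale under all 9 alternatives. The number of regions, 2986, was 2919, 1226 and 1973 without replicates 1, 2 and 3 and 597 at a fold enrichment of at least 4. The 5hmC difference of first minus later introns, 7.33 percentage points, ranged from 6.95 to 8.13 without 1 replicate. It was 9.19 at a fold enrichment of at least 4, 11.98 and 18.5 with at least 3 and 5 calls per site, 4.32 without regions of very high signal, 3.32 as a mean of single peaks with 10 or more calls, 3.79 from calls outside own peaks and, in an alternative chosen after seeing the data, 5.87 from 10 to 50 kb from the start. The 5mC difference, -6.30, ranged from -7.58 to -5.82 without 1 replicate and was -8.93, -13.3, -19.9, -1.61, -1.79 and -2.16 under the first 6 of those alternatives. Coding minus template was -5.47 with at least 3 calls per site. At a fold enrichment of at least 4 it was -2.04 ± 5.17, and only 1 replicate was lower on the coding strand. The number of such replicates was 2 beyond 2 kb from every start, for means of single peaks and for calls outside own peaks. Near minus far ranged from -1.32 to 2.08 without 1 replicate, so its direction turned, and was 10.9 for 5 kb against 100 kb, but 3.12 when the Mdga2 region, which had no 5hmC call, was also left out, an alternative chosen after seeing the data. At a fold enrichment of at least 4, the difference in shared peaks was -6.36, that in CA repeats 1.24 and that in median fold enrichment 1e-05, and the last was 0 at a q of at most 0.01. The causes of these moves were not tested. Depth limits single sites and regions: at most 6 calls fell on a CpG of a first-intron peak, and low counts cannot show small differences. Every tested difference was taken within a replicate, so those comparisons are paired by design. Comparisons of regions with the replicates merged or summed were described without a test.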
